A study of Arabidopsis thaliana with 4 samples.

Results

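RNA polymerase II, the enzyme that transcribes the protein-coding genes, is built from several kinds of subunit, and 6 Arabidopsis thaliana genes for its small subunits were examined. The genes were picked by name, by a rule that uses no measured value, although earlier results of these data were known when it was set. The probe annotation assigned 1 probe set each to NRPB6A (AT5G51940), NRPB6B (AT2G04630), NRPB9A (AT3G16980), NRPB9B (AT4G16265), NRPB12 (AT5G41010) and NRPB7 (AT5G59180). These are 6 of the 22746 probe sets tested, and none of the 6 has a name that Affymetrix uses for probes shared by several genes. Whole seedlings aged 9 days of the css1 mutant were compared with seedlings of the wild type (Columbia accession), written WT below, with 2 arrays for each genotype and an independent RNA sample on each. Both genotypes grew for the same time under continuous light on B5 agar with 2% sucrose. The labels give neither the gene nor the allele affected in css1. Earlier work on css1 placed its lesion in nMAT1, a nuclear gene for a maturase of mitochondrial introns, and the nMAT1 transcript is not analysed here.

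The small subunits sit at the edge of the enzyme, around a core formed by its largest pair of subunits. Some of them are shared with other nuclear RNA polymerases: Pol I, which makes ribosomal RNA, Pol III, which makes transfer RNA and 5S RNA, and the plant enzymes Pol IV and Pol V, which act in RNA-directed DNA methylation. Plants often keep a pair of genes for a subunit that yeast encodes with a single gene, and the A and B genes of the NRPB6 and NRPB9 families are such paralogues. RefSeq lists Pol IV or Pol V synonyms for both NRPB6 genes, both NRPB9 genes and NRPB12, and none for NRPB7.

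Values are log2 signals as deposited by the authors, who made them with RMA, a method that corrects background, equalises the distributions of the arrays and summarises the probes of a probe set. A difference of 1 on this scale is a doubling. Signals of different probe sets are not compared with each other, since each set of probes binds with its own strength. A gene was called when limma's moderated test, with genotype as its only term, gave an adjusted p under 0.05 (Benjamini-Hochberg, over the whole array). Array medians lay between 6.32 and 6.37. Across probe sets the 2 css1 arrays correlated at 0.997, the 2 WT arrays at 0.996, and arrays of different genotypes at 0.982 to 0.986. The WT arrays varied more than the css1 arrays, with a median SD over probe sets of 0.067 in css1 and 0.086 in WT. Precision is limited by having 2 arrays per genotype. Since whole seedlings were used, a change in RNA per cell cannot be told apart from a change in the mix of cells.

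NRPB12 and NRPB6B rose modestly in css1, while the other NRPB6 gene, NRPB6A, showed almost the same signal in both genotypes. NRPB9A, NRPB9B and NRPB7 had small positive differences that did not pass the test. In all, 2 of the 6 genes were called higher and none was called lower by limma. Of all probe sets, 7.63% were called higher and 8.01% lower in css1, which made 15.6% in either direction. At an unadjusted p under 0.05 the count was also 2 of 6, against 31.7% of all probe sets. The median difference of the 6 genes was 0.20 on the log2 scale, and that of all probe sets was −0.03. It was 0.30 without WT replicate 1 and 0.07 without WT replicate 2. Fewer of the 6 genes were called when any single array was left out, and fewer were called over all probe sets too, as given with the processing below. With so few genes, these shares describe the 6 and show nothing particular to them.

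**Figure D1:**
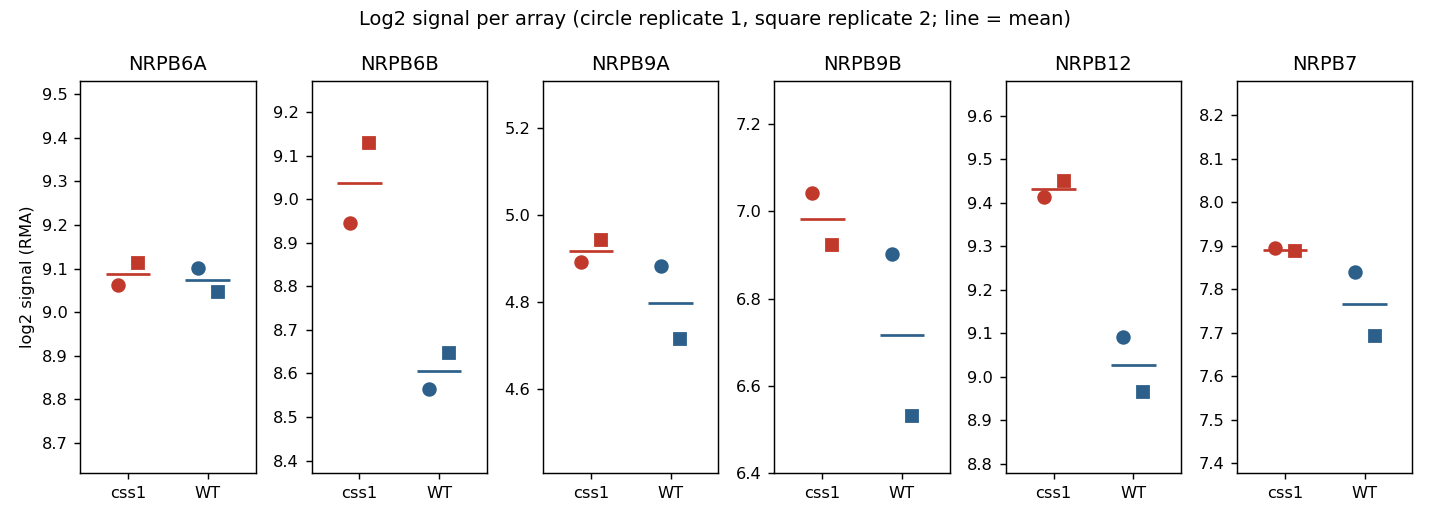
Log2 signal (vertical axis, the same span in each panel but different starting points) of the 6 genes on each array, with css1 on the left and WT on the right; circles are replicate 1, squares replicate 2, and lines are means of 2 arrays. NRPB6B and NRPB12 have clear gaps between the genotypes, NRPB6A overlaps, and the other 3 genes are separated only by a small margin from WT replicate 1.

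NRPB12 encodes the smallest subunit, a short zinc-binding protein that in yeast helps to hold the assembly platform of the polymerase together and that occurs in all nuclear RNA polymerases. Its log2 signal was 9.41 and 9.45 on the css1 arrays, against 9.09 and 8.96 on the WT arrays. The genotypes did not overlap, and the lowest css1 value lay 0.32 above the highest WT value. The difference was 0.40 (SE 0.09, 95% interval 0.18 to 0.63, limma adjusted p = 0.0374), a 1.32-fold rise. This was the smallest p of the 6 genes, and it lay close to the threshold. The call was kept without WT replicate 1 (0.47, adjusted p = 0.0460) and was lost without css1 replicate 1 (0.42, adjusted p = 0.163), css1 replicate 2 (0.38, adjusted p = 0.207) or WT replicate 2 (0.34, adjusted p = 0.103).

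The NRPB6 genes encode a shared subunit that in yeast bridges the clamp of the polymerase and its stalk. NRPB6B gave 8.95 and 9.13 on the css1 arrays, against 8.56 and 8.65 on the WT arrays. Both css1 arrays were higher than both WT arrays, by a margin of 0.30. The difference was 0.43 (SE 0.10, 95% interval 0.18 to 0.68, adjusted p = 0.0413), a 1.35-fold rise and the largest of the 6. The css1 arrays differed from each other by 0.18, more than for any other of these genes, with replicate 2 the higher. The call was lost when any single array was left out, with differences from 0.34 without css1 replicate 2 (adjusted p = 0.233) to 0.53 without css1 replicate 1 (adjusted p = 0.106). It was 0.39 without WT replicate 1 (adjusted p = 0.104) and 0.47 without WT replicate 2 (adjusted p = 0.0795).

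NRPB6A gave 9.06 and 9.11 on the css1 arrays, against 9.10 and 9.05 on the WT arrays. The genotypes overlapped in part, and the 4 arrays spanned less than the gap seen for NRPB6B. The difference was 0.01 (SE 0.09, 95% interval −0.20 to 0.22, adjusted p = 0.944), and its sign turned under 3 of the 11 alternatives, as given with the processing below. The intervals of NRPB6A and NRPB6B overlap slightly, and a rise or fall of NRPB6A within its own interval was not detectable with these arrays.

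Within each array, the log2 signal of NRPB6A minus that of NRPB6B was 0.11 and −0.02 in css1, against 0.54 and 0.40 in WT. Taken within an array, this quantity removes any scaling common to the array, and only its shift between genotypes is read. The css1 values were both lower than both WT values. The mean was 0.05 ± 0.09 in css1 and 0.47 ± 0.10 in WT (SD, n = 2 each), so the shift was −0.42 (SE 0.10). An exact two-sided permutation test over the 4 arrays gave p = 0.333, the smallest p that 2 against 2 arrays allow, so no p under 0.05 could be reached. The shift stayed between −0.49 and −0.35 when each array was left out in turn.

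The NRPB9 genes encode a subunit that in yeast contributes to the accuracy of transcription. NRPB9B gave 7.04 and 6.92 on the css1 arrays, against 6.90 and 6.53 on the WT arrays. The css1 arrays were higher, but by only 0.02 over WT replicate 1, and the WT arrays themselves were 0.37 apart, the widest replicate gap of the 6 genes. The difference was 0.27 (SE 0.14, 95% interval −0.08 to 0.61, adjusted p = 0.264). It was 0.45 without WT replicate 1 (adjusted p = 0.0609) and 0.08 without WT replicate 2 (adjusted p = 0.682), so its size rested on which WT array was used.

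NRPB9A gave 4.89 and 4.94 on the css1 arrays, against 4.88 and 4.71 on the WT arrays. The margin between the genotypes was 0.009, and the difference was 0.12 (SE 0.10, 95% interval −0.12 to 0.36, adjusted p = 0.468). All 6 probe sets lay above the filter used as an alternative, the 30th percentile of the mean signal at 4.73, and NRPB9A lay 0.13 above it. Without WT replicate 1 the difference was 0.20 (adjusted p = 0.246), and without WT replicate 2 it was 0.03 (adjusted p = 0.857).

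The within-array difference NRPB9A minus NRPB9B was −2.15 and −1.98 in css1, against −2.02 and −1.82 in WT. The genotypes overlapped. The mean was −2.07 ± 0.12 in css1 and −1.92 ± 0.14 in WT (SD, n = 2 each), a shift of −0.15 (SE 0.13, exact two-sided permutation p = 0.667, smallest possible p 0.333). With each array left out in turn the shift lay between −0.25 and −0.05. This shift was about as large as its standard error, and it does not show that the NRPB9 paralogues moved alike. The shifts of the 2 pairs were not tested against each other.

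**Figure D2:**
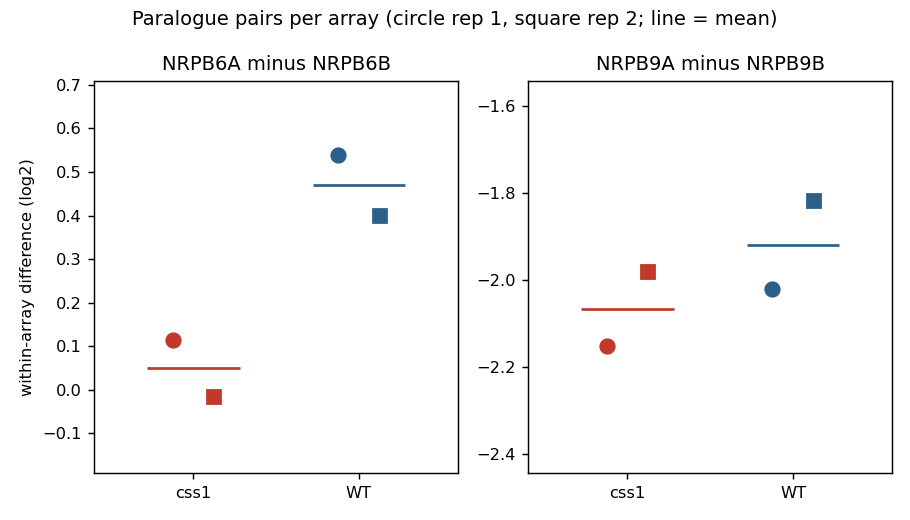
Within-array log2 difference between the paralogues (vertical axis, log2 units, A gene minus B gene) on each array, with css1 on the left and WT on the right; circles are replicate 1, squares replicate 2, and lines are means of 2 arrays. For NRPB6 both css1 values (0.11 and −0.02) lie under both WT values (0.54 and 0.40), and for NRPB9 the genotypes overlap.

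NRPB7 encodes a subunit of the stalk that protrudes from Pol II, where its protein pairs with NRPB4. Its log2 signal was 7.89 on both css1 arrays, against 7.84 and 7.69 on the WT arrays. The css1 arrays were nearly identical and lay 0.05 above WT replicate 1. The difference was 0.12 (SE 0.09, 95% interval −0.10 to 0.35, adjusted p = 0.422), and it ranged from 0.05 without WT replicate 2 to 0.20 without WT replicate 1.

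Both css1 values lay above both WT values for 5 of the 6 genes, all but NRPB6A, where 26.6% of all probe sets had css1 wholly above and 33.4% wholly below. For NRPB7, NRPB9A and NRPB9B the margin was at most 0.05, so this ordering says little for them. WT replicate 1 exceeded WT replicate 2 for 5 of the 6 genes, all but NRPB6B, as it did for 54.6% of all probe sets. The difference of each of these 5 genes was therefore smaller when WT replicate 2 was left out than when WT replicate 1 was left out.

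**Figure D3:**
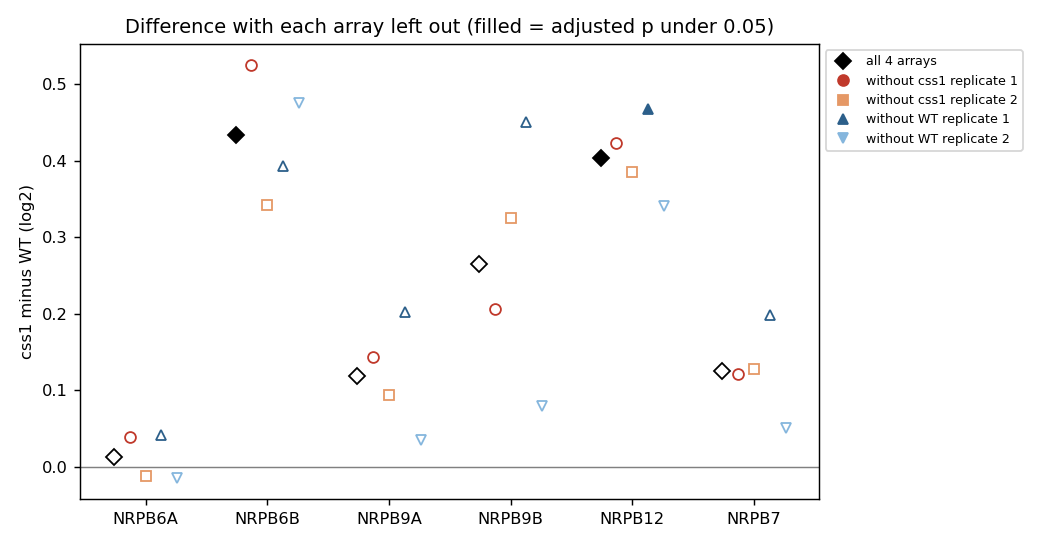
Difference css1 minus WT (vertical axis, log2) of each gene with all 4 arrays (black diamonds) and with each array left out; filled symbols passed an adjusted p under 0.05. NRPB12 and NRPB6B stay between 0.34 and 0.53 in every setting, NRPB9B runs from 0.08 to 0.45 with the WT array used, and NRPB6A stays near 0.

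The Bacillus poly-A control probe sets, made to report RNA that can be spiked in before labelling, were mostly higher in css1. On them 1 WT array lay apart from the other arrays. The median of the control differences was 0.23 (range −0.08 to 0.58), with 26 of 27 higher in css1. Several of these 27 probe sets report the same control transcript, so they are not 27 separate observations. Their medians were 5.35 and 5.26 on the css1 arrays, against 4.89 and 5.23 on the WT arrays. All 4 lay under the medians of the tested probe sets, which were at least 6.32. WT replicate 1 stood lowest, and WT replicate 2 lay close to the css1 arrays. For 5 of the 6 polymerase genes WT replicate 1 was the higher of the WT arrays, as for 54.6% of all probe sets. The 18 hybridisation controls, added after labelling, had a median difference of 0.004. The part of the poly-A control shift in the differences of the polymerase genes was not tested. The log2 ratio of 3′ to 5′ signal of the ubiquitin control, a sign of RNA integrity, was 0.12 and 0.11 in css1, against 0.13 and 0.13 in WT, that of the actin control was 1.09 and 1.29 in css1, against 1.04 and 1.04 in WT, and that of the GAPDH control was −0.28 and −0.21 in css1, against −0.42 and −0.25 in WT. The mean was thus higher in css1 for actin and GAPDH and lower for ubiquitin, and the part of this in the differences of the polymerase genes was not tested.

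Genes of related enzymes were taken from lists of loci drawn up from background knowledge, and only loci with a probe set of their own in the annotation could be used. The remaining Pol II subunit genes were hardly covered: of 11 loci, 1 had such a probe set, AT1G61700, and its signal near 3.1 was dim in both genotypes (difference −0.04, adjusted p = 0.770). The count of calls in that list was 0 by limma, with 0 at an unadjusted p under 0.05. The largest subunits and NRPB4, the partner of NRPB7, were not analysed here.

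NRPE7 and NRPD7 are the Pol V and Pol IV relatives of NRPB7. NRPE7 gave 7.11 and 7.27 on the css1 arrays, against 6.74 and 6.44 on the WT arrays, and it rose by 0.60 (SE 0.13, adjusted p = 0.0324), a 1.52-fold change. NRPD7, named after its values were seen, gave 5.76 and 5.998 on the css1 arrays, against 5.58 and 5.56 on the WT arrays, a difference of 0.31 (SE 0.11, adjusted p = 0.111). Both css1 arrays were above both WT arrays for each of these genes. The call of NRPE7 stands beside the value of NRPB7 (0.12), but the difference between the 3 relatives was not tested. These 2 loci were all that could be measured of 10 in the Pol IV and Pol V list, with 1 called higher, and that call was lost without css1 replicate 1, css1 replicate 2 or WT replicate 2.

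Of the Pol I and Pol III subunit genes, 12 of 18 listed loci were measured. All 12 differences were positive, and they stayed positive with the 2 other scalings. With the values as deposited, 44.9% of all probe sets had a positive difference. Of the 12 differences, 11 were positive without css1 replicate 1 or WT replicate 2. Their median was 0.29, against −0.03 over all probe sets. Of the 12, 3 were called higher, none lower and 9 were not called, and 8 had an unadjusted p under 0.05. Over all probe sets the shares were 7.63% called higher, 8.01% called lower and 31.7% at an unadjusted p under 0.05. NRPC2, for the second largest subunit of Pol III, gave 6.59 and 6.66 on the css1 arrays, against 6.28 and 6.25 on the WT arrays, a rise of 0.36 (SE 0.09, adjusted p = 0.0421). The other calls were AT3G25940 (0.56, adjusted p = 0.0124), with 8.14 and 8.12 on the css1 arrays against 7.57 and 7.56 on the WT arrays, and AT3G13940 (0.43, adjusted p = 0.0330), with 7.66 and 7.62 in css1 against 7.28 and 7.14 in WT. RefSeq gives neither locus a symbol. The genes of the largest catalytic subunits, NRPA1 and NRPA2 of Pol I and NRPC1 of Pol III, were named after their values were seen. Their differences were 0.32 (adjusted p = 0.0667), 0.26 (adjusted p = 0.111) and 0.27 (adjusted p = 0.109), and none passed. The signal of NRPC1, 4.53 in css1 and 4.26 in WT, lay under the filter at 4.73. Fewer of the 12 passed without css1 replicate 1, css1 replicate 2 or WT replicate 2, as was also so over all probe sets.

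The measured subunit genes of all nuclear RNA polymerases were then grouped, after the values were seen and with no test. Of these, 20 of 21 differences were positive (19 with a second quantile normalization, 18 without WT replicate 2). In this grouping 6 were called higher and none lower, and these calls depend on the settings given with the processing below. Over all probe sets 44.9% had a positive difference, 7.63% were called higher and 8.01% lower. The genes of the factors that work with Pol II had both signs. Of 5 measured initiation factor loci out of 22, 1 was called higher. Of their differences 4 were negative (3 with median centring or without css1 replicate 1). Their median of −0.17 was the value of AT3G52270, whose signal was dim (2.65 in css1 and 2.82 in WT). With the filter 4 loci remained, with a median of −0.10. The call was AT4G20330 (0.33, SE 0.08, adjusted p = 0.0491), which gave 9.23 and 9.22 on the css1 arrays, against 8.91 and 8.88 on the WT arrays, and it was lost with any single array left out and with a second quantile normalization. Of 4 measured loci out of 23 for elongation, polymerase tail and assembly factors, none was called by limma and 1 had an unadjusted p under 0.05. The smallest p in that list belonged to AT5G08565, for which RefSeq lists the synonym SPT4-1, a gene of the Spt4 elongation factor family (0.37, adjusted p = 0.0963), followed by AT2G34210, with the synonym SPT5-1, whose signal was low (−0.26, adjusted p = 0.213). AT5G08565 passed without WT replicate 1, which made the count 1. The difference between subunit and factor genes was not tested.

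**Figure D4:**
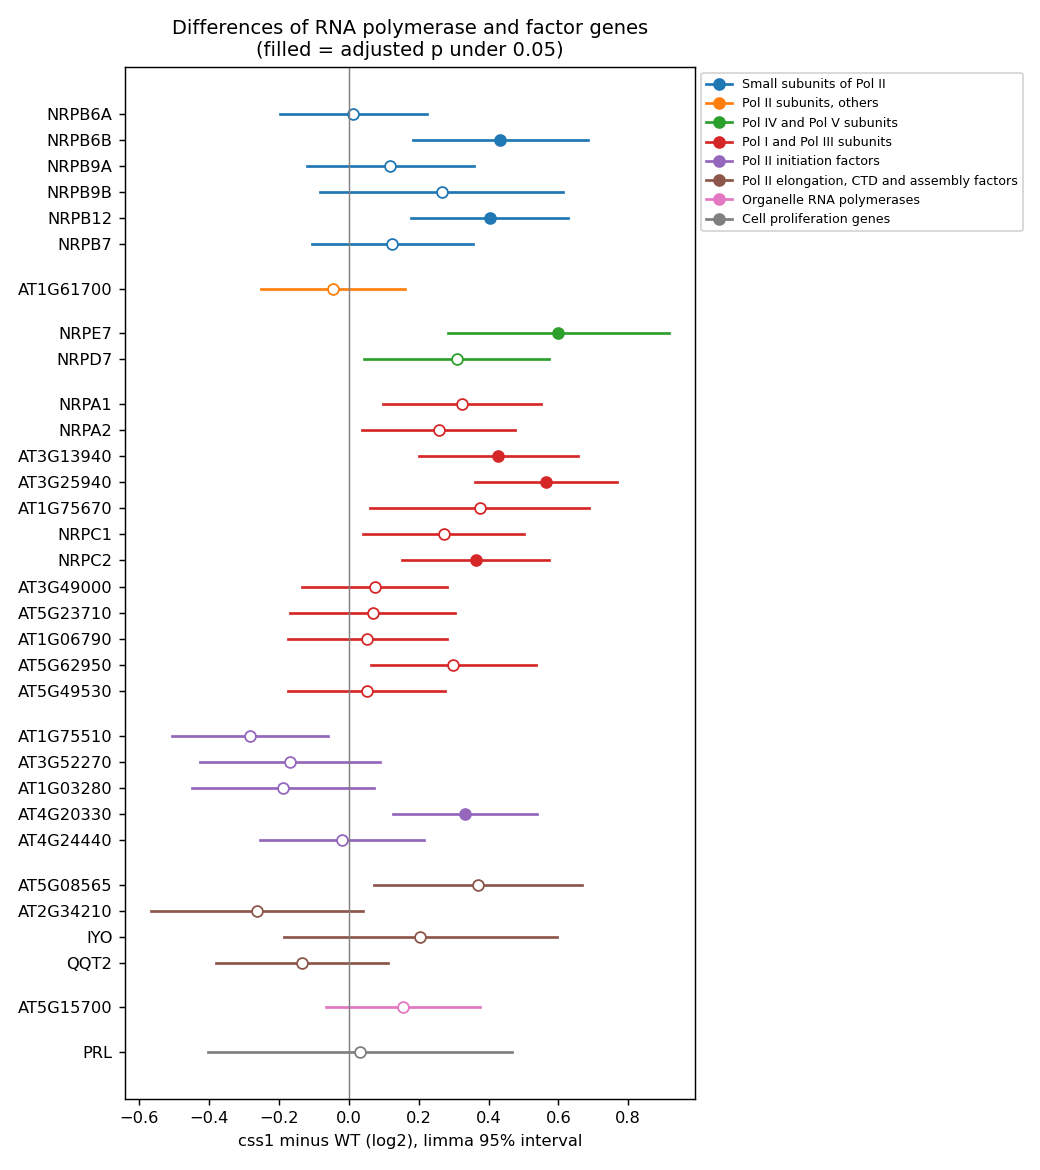
Difference css1 minus WT (horizontal axis, log2) with the limma 95% interval for the 6 small subunit genes of Pol II and for the measured loci of the related lists; filled points passed an adjusted p under 0.05. All 12 Pol I and Pol III loci lie to the right of 0, and the initiation and elongation factor loci fall on both sides.

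Of the organelle RNA polymerase list, 1 of 3 loci was measured, AT5G15700, at 0.15 (adjusted p = 0.300). Of the cell proliferation list, 1 of 12 was measured, PRL, which encodes the MCM7 replication helicase subunit, at 0.03 (SE 0.18, adjusted p = 0.930). In both lists 0 loci passed by limma and 0 had an unadjusted p under 0.05. The seedling label was checked against tissue markers: the leaf antenna gene LHCB4.1 was bright on all arrays (13.16 and 13.09 in css1, 13.08 and 13.37 in WT). The root hair expansin genes were present too, at 6.68 and 6.81 in css1, against 7.21 and 6.94 in WT, for EXPA7, and at 6.78 and 6.49 in css1, against 7.32 and 6.96 in WT, for EXPA18. These root genes were lower on both css1 arrays (−0.33, adjusted p = 0.123, and −0.51, adjusted p = 0.0858), without passing. They were 2 of 9 listed root markers, with 1 of 6 for the shoot and 0 of 4 for seed or flower measured. The part of the mix of tissues in the differences of the polymerase genes was not tested.

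The genes with the profile most like NRPB12 were sought by the Euclidean distance between log2 values centred on each gene's own mean, over the 4 arrays. The nearest 5 loci were AT5G51090, AT1G20430, AT3G05810, AT1G06010 and AT1G17350, at distances from 0.021 to 0.030, none with a symbol in RefSeq. Their differences ran from 0.38 to 0.42, close to the 0.40 of NRPB12, and AT5G51090 had a dim signal of 3.33 in css1 and 2.95 in WT. Among the small subunit genes NRPB6B was the closest to NRPB12, at a distance of 0.18, and NRPB6A the farthest, at 0.39. Of the probe sets annotated with 1 gene, 842 lay closer to NRPB12 than NRPB6B did. All these distances rest on the same 4 arrays, and genes with a like difference between genotypes come out close on them.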

How the data were processed

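Transcripts were measured on 1-colour Affymetrix arrays hybridised with biotin-labelled cRNA from 250 ng of total RNA, 2 arrays per genotype. The deposited values are log2 signals, for which the submitters' processing notes name RMA; its version is not given in the sources used here. They were used as deposited. The 64 control probe sets were set aside. The annotation gave 1 gene for 13513 probe sets, several for 503 and did not list 8730. Gene IDs matched 13436 of the 13513 to RefSeq loci, and those with several genes were not named. No coordinates are given, since no genome build is named in the files.

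The genotypes were compared with limma 3.58.1 in R 4.3.3 (lmFit, eBayes, two-sided), with Benjamini-Hochberg adjustment over 22746 probe sets. Summaries used Python 3.11.15. Paralogues were compared by an exact permutation test over arrays. Simulated data of 22746 probe sets held 100 changed by 1 log2 unit and 100 changed by 0.5. Of these, 100% and 43% were recovered, and 12 unchanged probe sets were called. The data themselves had 3559 calls, so the threshold on p differed and these shares do not give the recovery in them.

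The genes, lists and tests were chosen with earlier results of these data known. The rule named all 6 genes, up to 4 called loci per list or else 2 with the smallest p, and the 5 nearest profiles to the gene with the smallest p. Alternatives were a filter, eBayes with trend or robust, 2 other scalings, array weights, a replicate block, an adjusted p under 0.01, averaged probe sets per locus and leaving out each array. A lone remaining array was then assumed to vary like the other genotype.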

Additional observations from a re-analysis of the deposited data

How the results depend on the processing

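Directions held for NRPB6B, NRPB12, NRPB7, NRPB9A and NRPB9B under all 11 alternatives run for single genes. NRPB6A turned to −0.017 with a second quantile normalization and lay between −0.0149 and 0.041 with each array left out (−0.0124 without css1 replicate 2). The calls of NRPB6B and NRPB12 held with the filter, trend, robust, centring, quantile and weights alternatives. With the replicate block they were lost at unchanged differences of 0.43 (adjusted p = 0.0710) and 0.40 (adjusted p = 0.0865), so 0 of the 6 passed; over all probe sets the count was 1264 with the block, against 3559 without. The block uses up a degree of freedom. Over all probe sets, same-numbered arrays did not deviate together (correlation −0.006). Whether they shared a batch that acted on some genes was not tested, and the labels give only replicate numbers. With each array left out, NRPB6B ranged from 0.34 to 0.53 and NRPB12 from 0.34 to 0.47, 0 to 1 of the 6 passed, and 560 to 3079 probe sets passed in all (560 without css1 replicate 2, 659 without css1 replicate 1, 2227 without WT replicate 2). At an adjusted p under 0.01 none of the 6 and 773 probe sets passed.

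In the lists, the Pol I and Pol III count of 3 was 4 with median centring or a second quantile normalization, 1 with the replicate block, 0 at an adjusted p under 0.01 and 0 to 3 with each array left out. The Pol IV and Pol V count of 1 was 0 with the block and at an adjusted p under 0.01, and 0 to 1 with arrays left out. The initiation factor count of 1 was 0 with the block, with a second quantile normalization, at an adjusted p under 0.01 and with each array left out (0 to 0). The elongation factor count of 0 was 0 to 1 with arrays left out. No listed locus had several probe sets, so averaging changed nothing. Median centring raised every difference by about 0.04 and left the paralogue shifts as they were. With 2 arrays per genotype no test of outlying arrays was made.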
